A study of Mus musculus with 2 samples.

Results

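The genes described here are chromatin remodelers and histone modifiers whose transcripts carried peaks of FLAG-Usp39 binding. They were taken from the authors' table of bound genes by symbol alone, as every gene whose symbol begins with Kdm, Kmt, Setd, Hdac, Chd, Arid or Brd followed by a digit, or with Smarc. The rule found 49 genes, beside 4955 other genes of the table. Their peaks are those of the deposited peak list that carry the same symbol, 428 beside 35552 peaks of other genes, or 1.19% of the list. No measured value entered the choice beyond the presence of a peak, which every gene in the table has.

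RNA immunoprecipitation followed by sequencing (RIP-seq) was performed on AML12, an immortalized mouse hepatocyte line, to find RNAs associated with the splicing factor Usp39. The IP group was pulled down with anti-FLAG magnetic beads and the Input group was taken without antibody. Both groups came from AML12 cells that were transfected with a vector for FLAG-Usp39 under doxycycline control, kept in medium with an insulin, transferrin and selenium supplement and dexamethasone, induced for 72 h and cross-linked with paraformaldehyde for 5 min. The labels place this fixation before the isolation of nuclei, and the study's methods place it after. Each group holds 1 library, so no comparison between groups could be tested. The RNA held by the beads was that bound to an induced, tagged protein, and no library of cells without the FLAG-Usp39 vector was analysed here.

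Usp39 belongs to the tri-snRNP of U4, U5 and U6, which joins the assembling spliceosome and brings its catalytic small nuclear RNAs. Histone marks are set by writers such as the Kmt and Setd methyltransferases, removed by erasers such as the Kdm demethylases and the Hdac deacetylases, and bound by readers such as the bromodomain proteins. Chd, Arid and Smarc proteins belong to remodelers that slide or evict nucleosomes with the energy of ATP. Many of these proteins are very large and are encoded by long genes with many exons.

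The deposited values name no sample, so they describe the pooled peak list and not a library, and the depth of the IP and Input libraries is unknown. No source used here states whether the Input entered the peak calls. The list runs over the chromosomes 2 times, with 17990 peaks in each pass, and what separates the passes is not stated. Of the hepatocyte markers, Krt8 and Krt18 carried 14 and 16 peaks, whereas Alb, Apoa1, Apob, Ttr, Trf and Hnf4a carried none. Of the cholangiocyte markers, Krt7 and Krt19 carried 35 and 11 peaks and Sox9 and Epcam none. Of the mesenchymal markers, Vim carried 8 and Col1a1, Col1a2 and Acta2 none. The endothelial markers Pecam1, Kdr and Cdh5 and the immune markers Ptprc and Adgre1 carried none, and the 2 peaks named for the immune marker Cd68 lay outside it. A peak count reflects both binding and the amount of transcript, and these cannot be told apart in a peak list, so the labelled cell type could be neither shown nor disputed from it. Intervals are 95% Wilson intervals, which cover counting error only and are too narrow where peaks of both passes lie on the same stretch of RNA.

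Peaks with small p-values in 4 of these genes are shown first, because they mark the kinds of position at which the peaks were found. All are given 5′ to 3′ on the strand of the named gene from the GRCm38.p6 (mm10) genome. The Hdac7 intron peak lies at chr15:97808701-97808800 on the minus strand (p of 1.75e-09 by the peak caller, as all p-values below), in intron 7 of the principal transcript, the coding transcript taken to stand for the gene. Its capitals mark 70 bases of an exon of 111 bases that 3 other coding transcripts of Hdac7 carry. The Hdac7 5′ splice site peak, at chr15:97802401-97802500 on the minus strand (p of 2.47e-08), runs over the end of exon 13, whose bases are in capitals. The Brd1 exon peak, at chr15:88730201-88730300 on the minus strand (p of 2.47e-08), lies wholly inside the 1381 bases of exon 2. The Kmt2d 5′ splice site peak, at chr15:98854501-98854600 on the minus strand (p of 7.61e-07), covers the end of exon 28, in capitals, and the start of an intron of only 106 bases. The Chd3 intron peak, at chr11:69350401-69350600 on the minus strand (p of 1.63e-07), covers 83 of the 144 bases of Gm22442, a small Cajal body RNA gene inside intron 28, which are in capitals.
Hdac7 intron peak: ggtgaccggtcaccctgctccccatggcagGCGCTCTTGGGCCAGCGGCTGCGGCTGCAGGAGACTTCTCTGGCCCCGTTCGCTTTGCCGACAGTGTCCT
Hdac7 5′ splice site peak: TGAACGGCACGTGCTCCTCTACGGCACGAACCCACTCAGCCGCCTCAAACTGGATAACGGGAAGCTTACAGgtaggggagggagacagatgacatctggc
Brd1 exon peak: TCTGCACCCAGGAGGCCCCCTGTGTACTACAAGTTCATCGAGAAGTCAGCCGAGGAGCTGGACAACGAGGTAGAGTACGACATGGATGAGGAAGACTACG
Kmt2d 5′ splice site peak: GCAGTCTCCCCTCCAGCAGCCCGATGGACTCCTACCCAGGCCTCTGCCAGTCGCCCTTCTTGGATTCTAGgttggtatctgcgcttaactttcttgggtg
Chd3 intron peak: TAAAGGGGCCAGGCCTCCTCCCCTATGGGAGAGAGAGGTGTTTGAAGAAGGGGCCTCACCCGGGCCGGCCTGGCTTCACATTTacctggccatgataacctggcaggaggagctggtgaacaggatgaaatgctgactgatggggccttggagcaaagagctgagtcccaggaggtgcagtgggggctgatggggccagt

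Chromatin genes had a named peak more often than coding genes at large. Of 86 annotated coding genes that fit the symbol rule, 48 carried at least 1 named peak, or 55.8% (interval 45.3 to 65.8%), against 20.5% of all 21951 coding genes. The 49th gene of the set, Brd8dc, has another symbol in the annotation and was left out of this share. Genes not expressed in AML12 could not be left out of either share, since the deposited values hold no expression level. By position, a peak overlapped 50 of the 86 genes, against 4179 of the 21951. A peak was named for all 8 Kmt genes and for 7 of 8 Setd genes, with Setd4 the exception. The peaks named for Setd1b, Setd6 and Smarca1 lay outside these genes, as described below. Shares with a named peak were 7 of 10 for Chd, 10 of 18 for Kdm, 4 of 8 for Brd, 4 of 10 for Arid and 5 of 13 for Smarc genes. The deacetylases had the lowest share, with Hdac1, Hdac2 and Hdac7 as the 3 of 11 with a named peak.

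**Figure D1:**
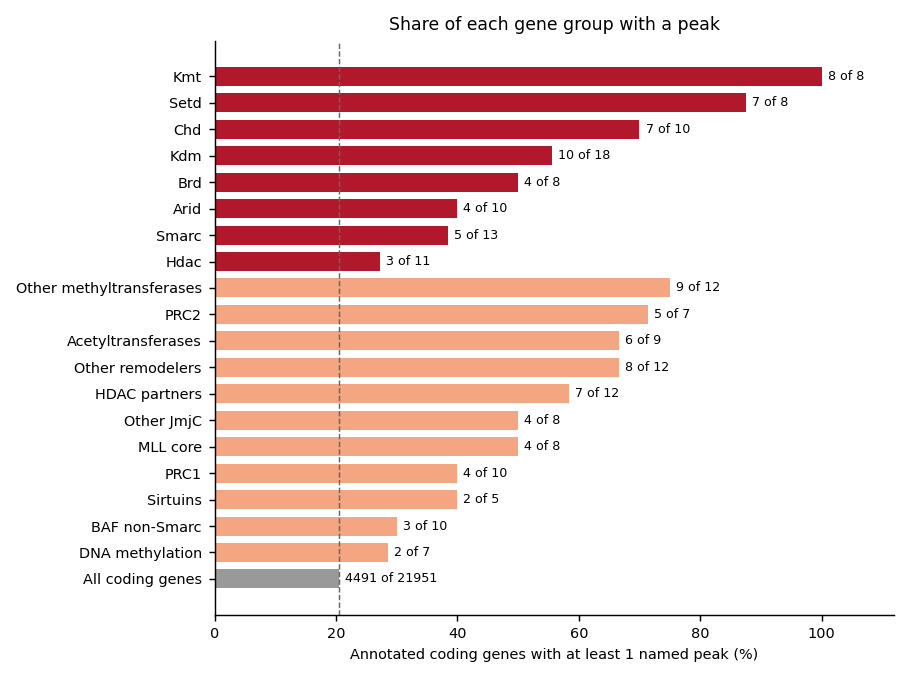
Share of annotated coding genes with at least 1 named peak (x axis, percent) for the 8 families described here (dark red), for 11 lists of other chromatin genes (light red) and for all coding genes (grey, also drawn as the dashed line at 20.5%). Each bar gives its genes with a peak of all its genes. Every family lies above the dashed line, with Kmt at 8 of 8 and Hdac at 3 of 11.

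Over all coding genes, longer ones carried a peak more often, and the chromatin genes were long. The 49 genes had a median length of 52.2 kb, against 26.6 kb for all coding genes with a named peak, and had a median coding sequence of 4203 bases, against 1476 bases. Within classes of gene length the chromatin families stayed above coding genes at large. Under 20 kb, 6 of 15 family genes had a named peak (40.0%), against 15.7% of all coding genes of that length. Between 20 and 50 kb the shares were 51.7% and 23.5%, between 50 and 100 kb they were 76.0% and 28.3%, and above 100 kb they were 47.1% and 28.6%. What part gene length has in the shares was not tested beyond these classes, and the part of expression could not be tested.

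Peaks were spread unevenly over the 49 genes. The median was 4 peaks per gene, against 3 over all genes of the table, and the mean was 8.73, against 7.19. Hdac7, Kmt2d and Kdm2a together held 140 peaks, or 32.7% of those in the set, and the 12 genes with the most peaks held 304 (71.0%). At the other end, 8 genes had 1 peak and 10 had 2. Across the 49 genes, the number of peaks inside the gene body followed gene length, coding length and exon number only loosely (Spearman's rho of 0.32, 0.28 and 0.30, given as descriptions over genes that share the same libraries).

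**Figure D2:**
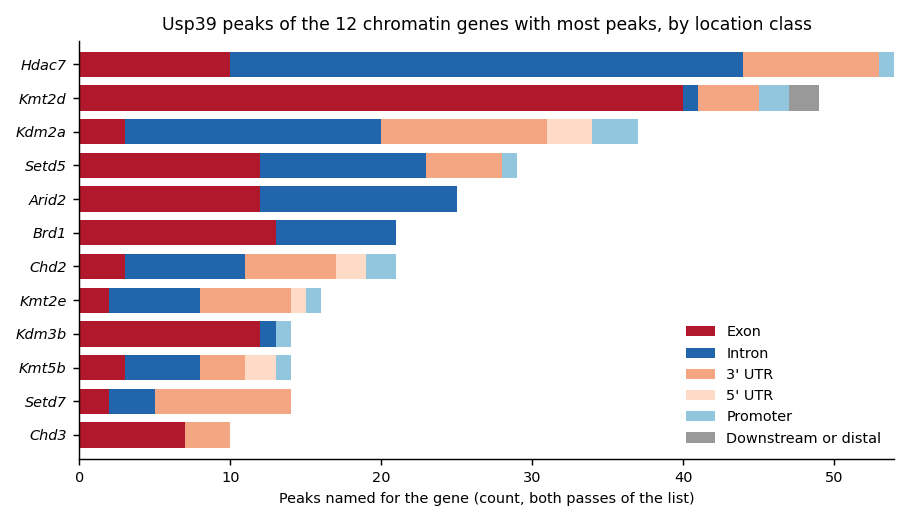
Number of peaks named for each of the 12 genes with the most peaks (x axis, both passes of the list together), split by the location class of the deposited annotation. Hdac7 leads with 54 peaks, most of them in introns, and Kmt2d follows with 49, of which 40 are classed in exons.

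Among the writers, Kmt2d, which encodes an enhancer methyltransferase of histone H3, carried 49 peaks, 25 in the first pass and 24 in the second. Of the 47 inside the gene (chr15:98831669-98871204), 43 touched coding sequence, 1 lay within an intron, and the 1.19 peaks per kb were the highest density in the set. Long exons held many of them: exon 32 (1815 bases) had 10 peaks, exon 40 (2952 bases) had 9 and exon 35 (1982 bases) had 4. The p-values of the 10 peaks in exon 32 ran from 1.75e-06 to 0.000736. The introns of Kmt2d, 19.7 kb in all, had 0.0507 peaks per kb, against 2.57 per kb in its coding sequence. Other long exons had few, with 1 peak each in exon 55 (2921 bases) and exon 11 (1434 bases) and 2 each in exons 12 and 49. The single intron peak lay in intron 19.

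Kmt2e, whose product reads methylated histone H3, had 16 peaks, of which 8 touched coding sequence and 5 lay in introns. Its strongest peak was in exon 23 (p of 1.39e-07), a further peak near its 5′ end in exon 1 had p of 1.75e-06, and 1 peak lay outside the gene in Srpk2. Kmt5b, a methyltransferase of histone H4, had 14 peaks, 5 of them in intron 2. Its strongest peak (p of 7.61e-07) lay in exon 11, where the antisense gene Gm16066 overlaps it, and reads of the 2 genes cannot be told apart without strand. The remaining Kmt genes had few peaks. Kmt2a, which encodes the methyltransferase MLL1, had 4 peaks, all in coding exons, and the pair in exon 7 had p of 3.26e-07 in either pass. Kmt2b also had 4, Kmt5a had 2, and Kmt2c and Kmt5c had 1 each, although Kmt2c, the paralog of Kmt2d, is 227 kb long.

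In the Setd family Setd5, a SET domain protein found with deacetylase complexes, had 29 peaks, 13 in the first pass and 16 in the second, all inside the gene. There were 17 in introns, 7 that touched coding sequence and 5 in the 3′ UTR, and the strongest (p of 1.75e-06) came from both passes in exon 22, the last exon. In intron 2, a peak of each pass lay over exons of noncoding Setd5 transcripts, which together span 1645 bases. Setd7, a lysine methyltransferase with many substrates, had 14 peaks, of which 9 lay in its last exon, 6169 bases long, and touched the 3′ UTR. Setd2, which methylates histone H3 along transcribed genes, had 5 peaks, all in coding exons. The 3 peaks named for Setd1b lay outside it, over the long noncoding gene AI480526, and the 3 named for Setd6 lay in Cnot1. Those peaks therefore describe neighbouring genes, not the Setd genes whose symbols they carry.

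Among the erasers, Hdac7, a class IIa deacetylase, had the most peaks of the set, with 54, of which 28 were in the first pass and 26 in the second. Inside the gene (chr15:97792664-97844502) lay 50, and 37 of these were in introns, 8 touched coding sequence and 5 lay in the 3′ UTR. Intron 1, 19.7 kb long, held 24 peaks at 14 separate sites, with p from 1.75e-06 to 0.000736. The introns of Hdac7 had 1.06 peaks per kb, against 0.0606 per kb over the introns of all coding genes with a peak. The strongest peak was that over the alternative exon in intron 7 printed above, called in the second pass, and the next strongest lay over the 5′ splice site of exon 13 in the first pass. The last exon had 5 peaks, among them 1 of 500 bases and 1 with p of 1.39e-07. The 4 peaks outside the gene lay in its neighbour Slc48a1. Peaks of Hdac7 thus ran through the whole transcript past its first exon, whereas those of Kmt2d kept to exons.

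**Figure D3:**
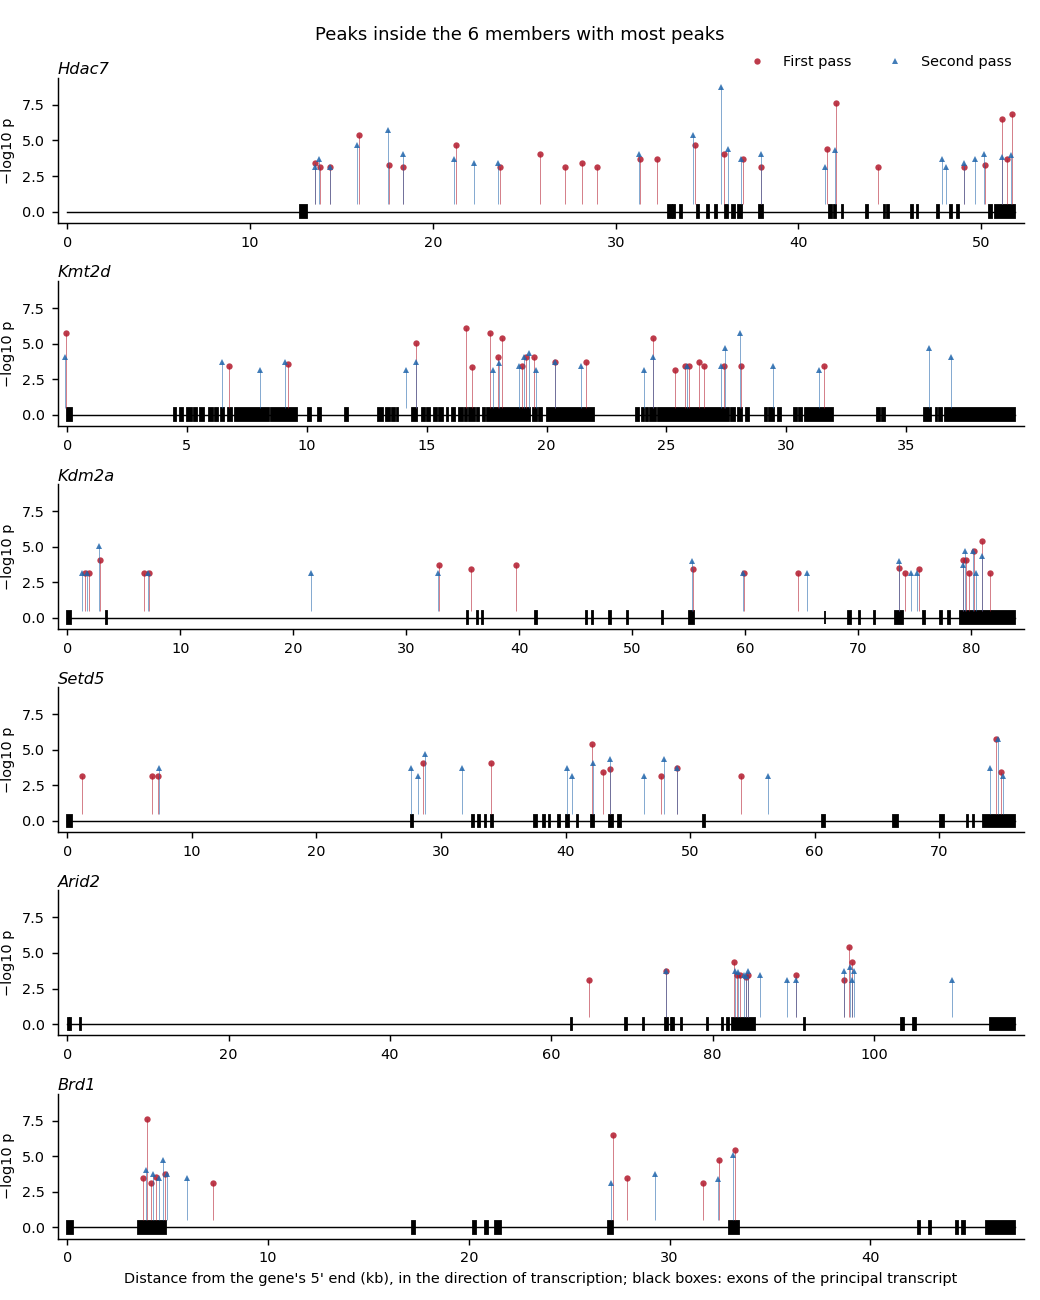
Peaks inside the 6 genes with the most peaks. The x axis is the distance from the 5′ end of the gene in kb along transcription, the y axis is −log10 of the p-value of the peak caller, red circles are peaks of the first pass, blue triangles peaks of the second, and black boxes exons of the principal transcript. Hdac7 shows peaks throughout its long intron 1, Kmt2d, Arid2 and Brd1 show clusters over long exons, and Kdm2a and Setd5 have clusters in the last exon.

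The other deacetylase genes had few peaks or none. A peak was named for 27.3% of the 11 Hdac genes, against 20.5% of all coding genes. Hdac1 had 1 peak, and Hdac2 had 3, of which 1 lay outside the gene in repeated sequence. Both proteins are the class I deacetylases of the Sin3, NuRD and CoREST complexes. Hdac4 and Hdac9, class IIa genes of 267 and 870 kb, had no named peak. No peak was named for Hdac3, Hdac5, Hdac6, Hdac8, Hdac10 or Hdac11, although 1 peak named for Gm14858 overlapped Hdac8 by position.

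Kdm2a, which encodes a demethylase that binds CpG islands, had 37 peaks, all inside the gene (chr19:4314419-4398285), with 20 in the first pass and 17 in the second. The last exon, 4863 bases long, held 11 of them, with a smallest p of 3.99e-06, and introns held 22. Introns 1 and 2 had 6 each. A stretch of 500 bases in exon 17 was called as a single peak in the first pass, and one of 400 bases overlapped it in the second. Kdm3b, a histone H3 demethylase, had 14 peaks, of which 13 touched coding sequence and 7 lay in exon 8, 1249 bases long, where the smallest p was 1.39e-07. Its paralog Kdm3a had 5 peaks, with a smallest p of 0.000377. The Kdm5 demethylases Kdm5a, Kdm5b and Kdm5c had 9, 4 and 6 peaks. The Kdm6 demethylases, which remove the mark set by Polycomb, had 2 (Kdm6a) and 3 (Kdm6b), and exon 11 of Kdm6b had a peak with p of 7.61e-07. Kdm4b had 5 peaks and Kdm1a, the flavin-dependent demethylase LSD1, had 2. Kdm1b, Kdm2b, Kdm4a, Kdm4c, Kdm4d, Kdm5d, Kdm7a and Kdm8 had none.

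Of the readers, Brd1, a scaffold of histone acetyltransferase complexes, had 21 peaks, all inside the gene (chr15:88687034-88734233), 11 in the first pass and 10 in the second. Exon 2 held 9 of them as 1 continuous site, with p from 2.47e-08 to 0.000736. Intron 7 held 5, and both ends of that intron were flanked by peaks, with p of 3.26e-07 over the 5′ splice site of exon 7 and p of 3.99e-06 in exon 8. The BET protein gene Brd2, whose product binds acetylated histones, had 9 peaks in 10.6 kb, and each of them touched coding sequence. Of the 9 peaks of Brd2, 5 ran over a 5′ splice site and 8 lay within 100 bases of one. Brd7 had 1 peak. No peak was named for Brd3, Brd3os, Brd8 or Brd9. By position, however, the 4 peaks named for Brd8dc all lay in Brd8, a subunit of the NuA4 acetyltransferase complex, with a smallest p of 3.26e-07, and 1 peak lay in Brd3.

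The remodeler genes of the Chd family had moderate counts. Chd2 had 21 peaks, 12 in the first pass and 9 in the second, of which 9 lay in introns, and its smallest p was 4.29e-05. The 3 Chd2 peaks outside the gene lay over the noncoding genes 1810026B05Rik and Gm44686. Both of these genes also overlap the 3 peaks in exon 1 of Chd2, which therefore cannot be assigned to Chd2 alone. Chd3 and Chd4, the ATPases of the NuRD complex, had 10 and 6 peaks. Of the Chd3 peaks, 5 touched coding sequence and 3 lay in the last exon, while the strongest pair was the one over Gm22442 printed above. In Chd4, 5 of 6 peaks touched coding sequence, 5 had a 5′ splice site within 100 bases, and the strongest (p of 1.39e-07) lay in exon 30. Chd1, Chd6 and Chd8 had 2 peaks each, and Chd1l, Chd5 and Chd7 had none.

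Chd9 had 7 peaks, and 2 of them, 1 in each pass, were 5600 bases wide. They began at chr8:90886201 and chr8:90886301 in intron 2, with p of 5.24e-15 and 7.67e-07. Both lay at least 36442 bases from the nearest 5′ splice site of the principal transcript. Only 15 peaks of the whole list were as wide or wider, these included. In the wider sequence context, 97.9% of the 31-base words of the first occurred more than 1 time in the genome, at a median of 11 copies, and the ends of the stretch shared a direct repeat of 429 bases. The smallest p of the whole set thus belonged to a repeated element in an intron, and reads of its copies cannot be told apart. Away from it, Chd9 had a pair of peaks in coding exon 3 with p of 1.99e-05 and 8.98e-06.

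Arid2, a subunit of the PBAF remodeler, had 25 peaks, 11 in the first pass and 14 in the second, all inside the gene (chr15:96287518-96404992). Exon 15, 2843 bases long, held 10 of them, and 7 lay in intron 16 between chr15:96383701 and chr15:96385100, where the smallest p was 3.99e-06. Arid1a and Arid1b, alternative subunits of the BAF remodeler, had 2 and 5 peaks, and Arid4b had 3. All 5 Arid1b peaks were in intron 4, and 4 of them fell on a tandem repeat at chr17:5158565-5159392, 828 bases long, made of 18 copies of a unit of 46 bases. The unit, on the plus strand of the gene, is shown because it holds GGCCAC, in capitals, a word counted below. A tandem repeat has no fixed first base, and the unit was cut to start at this word.
Arid1b repeat unit: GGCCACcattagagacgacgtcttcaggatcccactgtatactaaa

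The Smarc genes had the fewest peaks, 7 in all, named for 5 of 13 annotated genes. Smarcc2, a core subunit of BAF, had 2, both in coding exons, Smarcad1, Smarcd1 and Smarce1 had 1 each, and no peak was named for Smarca4 or Smarca2, the BAF ATPases, or for Smarca5. By position, however, 2 peaks lay in Smarca4 and 2 peaks named for Cspg5 in Smarcc1. The 2 peaks named for Smarca1, an ISWI ATPase, both lay outside it, over the processed pseudogene Gm14648. The stronger, at chrX:47900301-47900500 (p of 5.90e-11), is shown because it had the smallest p of any peak up to 200 bases wide in the set and does not overlap Smarca1. It is given on the plus strand, with the bases of Gm14648 in capitals, and 87.1% of its 31-base words also occur in transcripts of Rpl21, a ribosomal protein gene.
Peak named for Smarca1: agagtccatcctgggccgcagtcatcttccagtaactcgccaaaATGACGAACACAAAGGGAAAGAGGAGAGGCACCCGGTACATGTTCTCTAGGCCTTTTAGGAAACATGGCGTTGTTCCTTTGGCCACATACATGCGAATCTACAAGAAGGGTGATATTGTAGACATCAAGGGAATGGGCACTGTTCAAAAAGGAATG

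Over the whole set, peaks of chromatin genes lay in exons more often than peaks at large, and in introns less often when each peak was counted equally. In the deposited annotation 170 of 428 peaks were classed as exonic outside the UTRs, or 39.7% (interval 35.2 to 44.4%), against 24.0% of all peaks. Introns took 32.0% (27.8 to 36.6%), against 41.5%, and 3′ UTRs took 18.5%, against 19.5%. Distal intergenic peaks were rare, at 3 of 428 (0.701%), against 8.73%. Most peaks, 403 of 428 (94.2%), lay inside the gene they were named for, against 74.3% of all peaks. Without Hdac7 the intron share was 27.5%. With each gene weighted the same it was 25.4%, against 25.5% over all genes, so that the difference in introns was no longer seen, while the exon shares were 42.3% and 30.0%. The deposited classes can rest on other transcripts than the principal one: of 69 peaks inside their genes with the 3′ UTR class, 25 (36.2%) touched coding sequence of the principal transcript, against 24.8% over coding genes.

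The transcripts of these genes are mostly intron, so the location was also set against length. Per kb, the coding sequence of the 49 genes held 0.796 peaks, against 0.766 over all 4491 coding genes with a peak. UTRs held 0.592, against 0.472 per kb, and introns 0.0518, against 0.0606 per kb. Relative to length, the coding sequence of chromatin genes thus had a peak density close to that of all bound coding genes, which include them. Their larger exon share went with their longer coding sequences, whose part in it was not tested. Among the 12 genes with the most peaks, coding density ran up to 3.64 per kb in Brd1, 2.84 in Hdac7, 2.57 in Kmt2d, 2.46 in Kdm3b and 2.19 in Arid2.

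**Figure D4:**
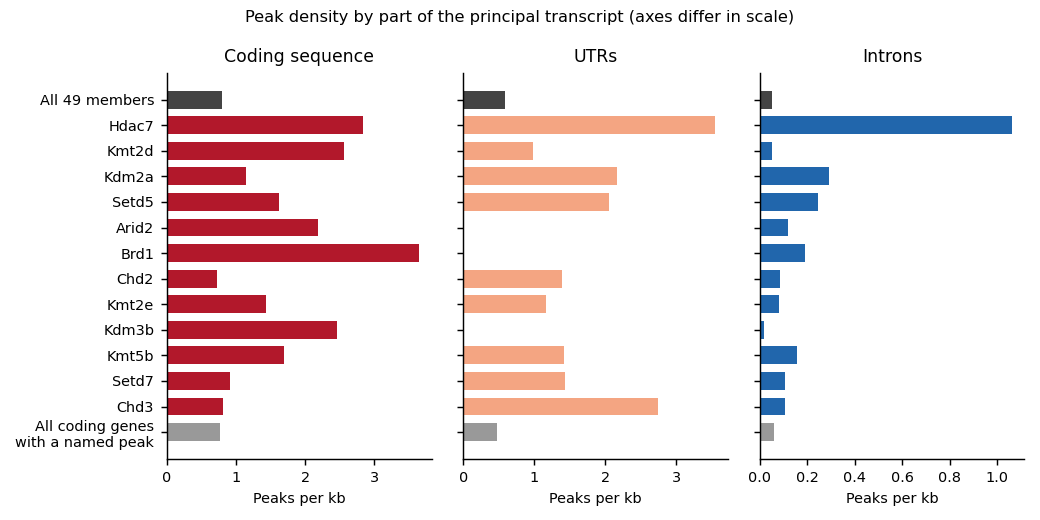
Peaks per kb (x axes, which differ in scale) in the coding sequence, UTRs and introns of the principal transcript, for the 49 genes together (black), for the 12 genes with the most peaks and for all coding genes with a named peak (grey). Intron density is 1.06 per kb in Hdac7, against 0.0606 over all coding genes with a peak, while coding density in Kmt2d is 2.57 per kb.

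Counted by single peaks, coding exons of 500 bases or more stood out within the set. They made up 31.3% of the coding length of the 49 genes but took 89 of 184 overlaps of a peak with coding sequence (48.4%), or 1.23 overlaps per kb, against 0.599 per kb in shorter coding exons. Over all coding genes with a peak the same exons made up 21.7% of the length and 29.2% of the overlaps (1.05 against 0.704 per kb). Without Kmt2d the long exons of the remaining genes took 43.3% of the overlaps, at 0.984 against 0.525 per kb. The clusters in Kmt2d exons 32 and 40, Arid2 exon 15, Brd1 exon 2 and Kdm3b exon 8 are examples. In that order these exons held 10, 9, 10, 9 and 7 peaks, which joined within 100 bases into 2, 4, 3, 1 and 2 sites. Neighbouring bins and both passes of 1 site thus count more than 1 time in these values. The overlaps were not recounted by site.

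Splice sites were compared because Usp39 acts in spliceosome assembly. Of the 403 peaks inside their genes, 84 were found no more than 100 bases from a 5′ splice site of the principal transcript (20.8%, interval 17.2 to 25.1%), against 15.2% of 25746 peaks in coding genes. For 3′ splice sites there were 72 (17.9%, interval 14.4 to 21.9%), against 14.5%. Among peaks that touched coding sequence the order was the other way, with 41.3% near a 5′ splice site, against 47.8% over all coding genes, and 37.0% near a 3′ splice site, against 47.0%. The higher share over all positions went with the larger share of coding peaks in the set (45.7%, against 26.9%).

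Peaks ran directly over 27 5′ splice sites in 14 genes of the set, of 1120 in the principal transcripts of all 49 genes (2.41%), against 2.51% over all coding genes with a peak. Introns that start there were short, with a median of 304 bases, against 983 bases for the 1093 other introns of these genes. Over all coding genes with a peak the same medians were 577 and 1222 bases. Of the 27, all begin with GT in the intron, 19 exons end in AG, and 1 matches all 9 letters of CAGGTAAGT, with a mean of 6.70 matching letters, against 6.43 at the other sites. Over all coding genes with a peak the order was the other way, with means of 6.25 and 6.41. The 7 sites with the smallest p are shown with the last 12 exon bases in capitals and 18 intron bases, to let the exon ends be compared. All come from GRCm38.p6. Hdac7 exon 13 (chr15:97802412-97802441), Brd1 exon 7 (chr15:88707016-88707045), Kmt2d exon 28 (chr15:98854513-98854542), Brd2 exon 3 (chr17:34116890-34116919), Kmt2d exon 20 (chr15:98856589-98856618) and Hdac7 exon 8 (chr15:97808335-97808364) are on the minus strand, and Smarcc2 exon 8 (chr10:128468859-128468888) is on the plus strand.
Hdac7 exon 13: GGAAGCTTACAGgtaggggagggagacaga
Brd1 exon 7: CAGCGGAGGAAGgtaagcatggggtaggag
Kmt2d exon 28: CTTGGATTCTAGgttggtatctgcgcttaa
Brd2 exon 3: CTGGGTTTGCCGgtgagtaagaggctggat
Kmt2d exon 20: TCAAGGGTGAAGgttgggctggggaatctc
Hdac7 exon 8: CACTGTGGACTGgtgagtcttgccgcttct
Smarcc2 exon 8: AAACCGAGGAAGgtgagctctcctggtccc

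Within this group the peaks over Hdac7 exon 13, Brd1 exon 7 and Kmt2d exon 28 had p of 2.47e-08, 3.26e-07 and 7.61e-07. Kmt2d contributed 6 of the 27 sites, Brd2 and Hdac7 contributed 4 and 3, and the intron that follows was under 500 bases long at 16 of the 27 (59.3%), against 34.9% of the other introns. Over all coding genes with a peak these shares were 46.8% and 28.9%.

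Peaks wholly in introns were mostly far from the splice sites of the principal transcript. Of 157 such peaks, 7 (4.46%) had a 5′ splice site within 100 bases, against 3.37% over all coding genes, and the median distance was 1301 bases, against 1956 bases. Counted next were exons of other transcripts that lie wholly inside an intron of the principal one. Such an exon lay under 13 of the 157 (8.28%, interval 4.90 to 13.7%), against 4.20%. The Hdac7 peak in intron 7 and a Setd5 peak of each pass in intron 2 are examples. Exons that lie only partly within an intron were not counted. An exon of another transcript that spans the entire intron lay under 1 of the 157 (0.637%, interval 0.113 to 3.52%), against 4.02%. The annotated type of a transcript, such as retained intron, was not used for this count. Intron 1 held 43 (27.4%), against 24.6%, and 24 of the 43 were those of Hdac7.

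By the p-values of the peak caller, the peaks of chromatin genes were not strong for the list. A p of 1e-05 or less was given to 49 of 428 (11.4%, interval 8.77 to 14.8%), against 14.4% of all peaks. The median p was 0.000377, against 0.000210, and 140 peaks (32.7%) had the weakest p of a single bin, 0.000736, against 25.8%. Widths were small, with 89.0% of peaks at 100 bases, against 78.5%. Only Chd9, Hdac7 and Kdm2a had a peak of 500 bases or more. The set was thus marked by many weak single-bin peaks, and its 49 peaks with p of 1e-05 or less came from 21 genes, with 9 in Hdac7, 7 in Kmt2d and 4 in Brd1.

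The passes of the list shared many sites of the set but not most, and their peaks were often 1 bin apart. The set had 217 peaks in the first pass and 211 in the second, which joined within 100 bases into 258 sites, and 121 of these (46.9%) held peaks of both passes, against 48.7% of all sites. Direct overlap with a peak of the other pass was seen for 101 of 428 peaks (23.6%), against 32.6% of all peaks. For 83 of 217 first-pass peaks (38.2%) the nearest peak of the second pass started 100 bases higher on the chromosome, and for 11 (5.07%) 100 bases lower. The same shift was seen on both strands, with 32 of 81 against 1 on the plus strand and 51 of 136 against 10 on the minus strand. Distances to splice sites carry the same uncertainty of 1 bin.

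Most peaks of the set lay in sequence found a single time in the genome. Of 428, 380 (88.8%) had no repeated 31-base word, against 74.8% of all peaks, and 27 (6.31%, interval 4.37 to 9.02%) were repeated over more than 50% of their words, against 17.0%. Among the 27 were the Chd9, Arid1b and Smarca1 peaks described above, both peaks over the 5′ splice site of Kmt2d exon 20 and 6 peaks of Brd1. The Brd1 peak over the 5′ splice site of exon 7 was 1 of these 6, with 52.9% of its words repeated. The 27 also included all peaks of Hdac1, Kmt5a and Smarce1 and the strongest peak of Kmt5b. The word GGCCAC, searched on the strand of the gene alone, was present in 21 of 403 peaks (5.21%), against 4.86% over coding genes, and 4 of the 21 lay on the Arid1b repeat, where the word occurs 18 times. GCCATA was present in 4 (0.993%), against 1.96%.

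The genes with many peaks gathered on few chromosomes. Hdac7, Kmt2d, Arid2, Brd1 and Smarcd1 lie on chromosome 15 and held 150 peaks, 35.0% of the set, against 8.15% of all peaks and 3.58% of coding genes. Kdm2a and Kmt5b on chromosome 19 held 51 peaks (11.9%), against 12.1% of all peaks. The 7 genes on these chromosomes had a median of 25 peaks, and the 42 others a median of 3. Over all genes of the table, the medians were 4 on chromosomes 15 and 19 and 2 elsewhere, and there were 3.73 peaks per coding gene on chromosome 15 and 6.06 on chromosome 19, against 1.64 over the genome.

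**Figure D5:**
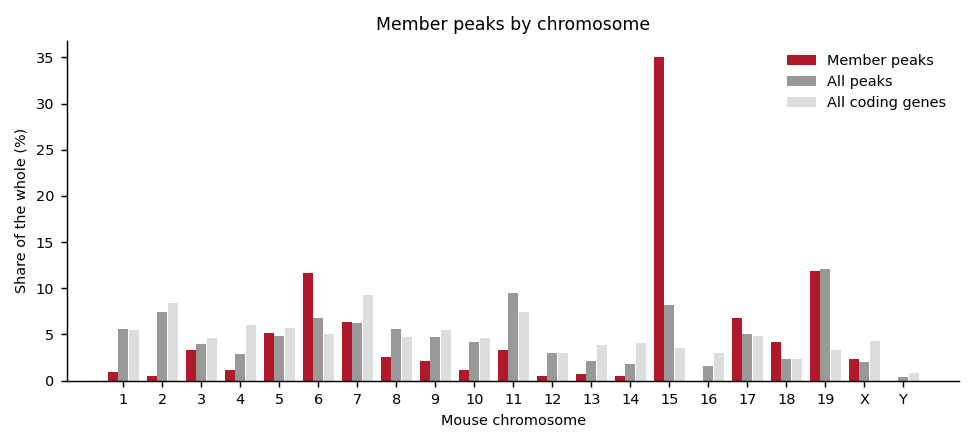
Share of the 428 peaks of the set (red), of all peaks (dark grey) and of all annotated coding genes (light grey) on each mouse chromosome (y axis, percent). Chromosome 15 holds 35.0% of the peaks of the set, against 8.15% of all peaks, and chromosome 19 holds 11.9%, against 12.1%.

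Partners of these proteins that the symbol rule leaves out carried peaks about as often. In 11 lists of other chromatin genes, 54 of 100 genes (54.0%) had a named peak, against 20.5% of all coding genes. These lists had 415 peaks in all. Among enzymes, 9 of 12 other methyltransferases had one, led by Ash1l (21 peaks), and 6 of 9 acetyltransferases, led by Ep300 (16) and Crebbp (7). Of the corepressor and deacetylase partners, 7 of 12 had one, led by the nuclear receptor corepressor Ncor1 (29), and none was named for Sin3a or Mbd3. Of the other remodelers, 8 of 12 had one, among them Atrx (24), Baz1b (19) and Bptf (16), and none was named for Ino80 or Hells. Of the BAF subunits outside the Smarc family, 3 of 10 (30.0%) had one, with 6 peaks in Dpf2 and none in Pbrm1 or Actl6a. The 3 include Phf10, whose 1 named peak lay outside the gene. Among the MLL core subunits 4 of 8 had one, led by Hcfc1 (11) and Ncoa6 (10). Of 7 genes of DNA methylation, 2 had one, Tet2 and Tet3, with none for Dnmt1 or Dnmt3a.

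Naming by the nearest transcript start matters for some of these genes. Ezh2, the methyltransferase of Polycomb complex PRC2, had 63 named peaks but only 1 inside the gene, and Phf2 had 26 and Gatad2a 15, none inside. Nsd1 had 2 of 14 inside. In the set itself, all peaks of Brd8dc, Setd1b, Setd6 and Smarca1 lay outside the named gene, 12 peaks together.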

How the data were processed

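RIP-seq was carried out with 1 IP and 1 Input library of AML12 cells that expressed FLAG-Usp39. The authors sequenced 150-base pairs. They used Trim Galore (version 0.6.1) for trimming, FastQC (version 0.11.9) for quality control, Bowtie (version 1.2.3) to filter out ribosomal RNA and HISAT2 for alignment to mm10, its version not being stated. Peaks came from Piranha (p-value limit 0.001, bins of 100 bases) and were annotated with clusterProfiler, and HOMER is named in the submitters' processing notes. The deposited p-value of each peak is that of the caller, unadjusted. The count of peaks per gene was deposited by the authors for 5004 genes and the list holds 35980 peaks. Positions, widths and location classes were likewise taken as the authors deposited them. No column names a sample.

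Peaks were set against GENCODE vM21 and the GRCm38.p6 genome with Python 3.11.15, pandas 2.3.3, numpy 2.4.6, scipy 1.17.1, pysam 0.24.0 and matplotlib 3.10.9. The principal transcript was the APPRIS principal, then the one with the longest coding sequence. No annotated gene was found for 17 entries of the gene table. Sites join peaks within 100 bases. Words of 31 bases were counted on both strands of the whole genome. The shares are described beside those of all peaks or coding genes, with no test between groups. The steps were tested on simulated data. Values of some single genes are not reported here.

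The set of genes and all gene lists were chosen with earlier results of these data known. Named were the 12 genes with the most peaks, those with the 6 smallest p-values, with a peak of 500 bases or more, with 3 or more peaks mostly outside the body, and the 5 densest, then family genes without a peak (up to 3 per family, or those a peak overlaps), and per complex up to 3 other chromatin genes by number of peaks and up to 2 with none. Other genes, and the counts of long exons, repeated words and chromosomes, were chosen after their values were seen. Alternatives were a p-value limit of 1e-05, each pass alone, joined sites, equal weight per gene, leaving out the gene with the most peaks, other splice windows and words, and at least 2 peaks per gene.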

Additional observations from a re-analysis of the deposited data

How the results depend on the processing

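Of 73 values recomputed under other settings, 48 were classed as unchanged and 25 as moved. Shares were judged by the Wilson interval of the reported share. Counts of genes and peaks have no such interval and were judged by a fixed band around the reported count, which is not an error. Within that band lay 41 genes with at least 2 peaks, beside 49 as reported, and 374 peaks without Hdac7, beside 428. The 3′ UTR share, below that of all peaks as reported, was above it at a p-value limit of 1e-05 and in the first pass alone (19.82%, against 19.76%). At that limit, 21 genes and 49 peaks remained, with 89.8% of peaks inside the named gene, 14.3% in introns, 46.9% in exons and 26.5% in 3′ UTRs, and over all peaks at that limit the last 3 shares were 25.0%, 33.5% and 19.1%. At the same limit GGCCAC stood in 5 of 44 peaks inside their genes (11.4%). Of all 49 peaks, 20 (40.8%) overlapped one of the other pass. The 5 with the word were a peak on the Arid1b repeat, the wide Chd9 peaks and peaks in the last exon of Hdac7. Shares over all peaks at this limit were not computed for the word or the overlap. Each pass alone gave 217 and 211 peaks. Joining gave 258 sites, of which 15.1% reached p of 1e-05, 25.5% lay near a 5′ and 22.6% near a 3′ splice site, and 46.9% held both passes. The intron share was 27.5% without Hdac7 and 25.4% with equal weight per gene, against 25.5% over all genes weighted so. Windows of 50 and 200 bases gave 14.6% and 34.0% near a 5′ splice site and 11.2% and 30.5% near a 3′ splice site, and 100 bases from the middle of the peak gave 13.9% and 10.4%. GGCCAC on either strand stood in 8.68% of peaks, and GCCATA in its place in 0.993%. The causes were not tested. No paired analysis was possible because each group holds 1 library and the columns name no sample. The unknown depth sets no limit that could be stated for genes without a peak.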
